A study of Mus musculus with 4 samples.

Results

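Scd2 and Pgrmc1 are genes of lipid and sterol metabolism whose transcripts lay among those with the tallest IMP2 clusters in embryonic mouse brain. IMP2 (gene Igf2bp2) belongs to the IGF2BP family of RNA-binding proteins, and its RNA contacts were mapped by HITS-CLIP, in which ultraviolet light joins protein to RNA, an antibody recovers the protein, and the RNA fragments held by it are sequenced. All 4 libraries came from whole brains of Swiss Webster embryos at E14, with R in the titles of 2 and M in those of the other 2, and the meaning of these letters is not given. These libraries share 1 strain, tissue and age, with no genotype or treatment named in their labels, and a whole brain mixes many cell types. The deposited data were 1 list of clusters (stretches of overlapping CLIP tags) for the series, which does not say from which libraries each cluster came, so no value below has a replicate error, and the depth behind each value is unknown.

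The rows of the list named Scd1, Scd2, Pgrmc1 or Pgrmc2 were taken and reduced to distinct clusters by position and strand. They gave 13 of the 1828 clusters of the list, 7 in Scd2 and 6 in Pgrmc1, and 2 of its 761 genes. Scd1 and Pgrmc2 had no row. The genes were chosen from their heights in this same list, so heights, ranks and what follows from them are a description and carry no test.

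Scd2 encodes a stearoyl-CoA desaturase, an enzyme of the endoplasmic reticulum that puts a double bond into saturated fatty acids, and takes the electrons for this from cytochrome b5. Oleate and palmitoleate made in this way go into membrane lipids and sterol esters. Scd2 is the main desaturase of its family in mouse brain, while Scd1 prevails in liver and fat. Pgrmc1 encodes a small haem-binding membrane protein with a fold like that of cytochrome b5. It belongs to the membrane-associated progesterone receptor (MAPR) family, and it binds cytochromes of the endoplasmic reticulum, among them the lanosterol demethylase Cyp51 of cholesterol synthesis. Cholesterol of the adult brain is made within the brain, since lipoproteins of the blood do not cross the blood-brain barrier. Whether this holds for the embryos used here was not tested.

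Every cluster of both genes lay in the 3' UTR, the untranslated stretch after the stop codon, as did 94.1% of all clusters in the list by their midpoint. Each gene was annotated with 1 RefSeq transcript. That of Scd2 (NM_009128) lies on the plus strand of mm9 at chr19:44368166-44381352, with a 3' UTR of 3662 bases at chr19:44377691-44381352. That of Pgrmc1 (NM_016783) lies on the plus strand at chrX:34138220-34146074, with a 3' UTR of 1188 bases at chrX:34144887-34146074. Among the 729 listed genes with a 3' UTR interval the median length was 1998 bases, so that Scd2 was longer and Pgrmc1 shorter than the middle of the list.

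The 3 tallest clusters of Scd2 were also its widest and stood at the ends of its 3' UTR, with lower and narrower ones between them. The deposited height of a cluster is taken as its deepest pile of tags, and the authors' fold of the height is a ratio to a level that the header does not define. At the stop codon, the first cluster (chr19:44377690-44378074) had a height of 83, a fold of 9.85 and a width of 385 bases. It began on the last base before the 3' UTR interval, and its other 384 bases lay inside. The second (chr19:44378230-44378399) followed after a gap of 155 bases, with a height of 36, a fold of 4.55 and a width of 170 bases.

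In the middle of the Scd2 3' UTR the clusters were narrower than the first and the second. They were also lower, except that the third was slightly taller than the second. The third (chr19:44379116-44379203) had a height of 38 over 88 bases, the fourth (chr19:44379335-44379370) a height of 28 over 36 bases, and the fifth (chr19:44380080-44380116) a height of 23 over 37 bases. Their folds were 6.23, 5.10 and 2.83. The fourth and the fifth were the members' only clusters under the list's median height of 30, and stretches of 716, 709 and 602 bases without a cluster lay before the third, before the fifth and after it.

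The far end of the Scd2 3' UTR carried the tallest cluster of the gene. It lay at chr19:44380719-44380990, with a height of 90, a fold of 12.7 and a width of 272 bases, and its midpoint lay at 86.4% of the 3' UTR counted from the stop codon. The last cluster (chr19:44381052-44381346) had a height of 50, a fold of 6.14 and a width of 295 bases, and ended 6 bases before the annotated end of the transcript. When the Scd2 3' UTR was divided into 3 stretches of equal length, clusters covered 45.4% of the first, 13.2% of the middle and 46.4% of the last.

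Pgrmc1 had a different layout, with most of its clusters close together from near the stop codon to past the middle of a short 3' UTR. The first (chrX:34144928-34144965) began at base 42 after the stop codon, with a height of 37, a fold of 4.55 and a width of 38 bases. The second (chrX:34145024-34145066) had a height of 32, a fold of 3.94 and a width of 43 bases, and was the lowest of this gene. These were the narrowest clusters of Pgrmc1, and both still exceeded the median height of the list.

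Heights were greater in the next clusters of Pgrmc1 and greatest in the one after them. The third (chrX:34145076-34145161) had a height of 53 and a fold of 6.43 over 86 bases, and the fourth (chrX:34145185-34145271) a height of 57 and a fold of 7.19 over 87 bases. The fifth (chrX:34145274-34145576) had a height of 94, a fold of 10.9 and a width of 303 bases, with its midpoint at 45.3% of the 3' UTR. Gaps of 9, 23 and 2 bases were all that parted the second to the fifth clusters. The sixth (chrX:34145697-34145780) had a height of 45, a fold of 6.09 and a width of 84 bases, and no cluster was listed in the remaining 294 bases. By the same division, clusters covered 66.4%, 74.2% and 21.2% of the Pgrmc1 3' UTR from the stop codon to the end.

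**Figure D1:**
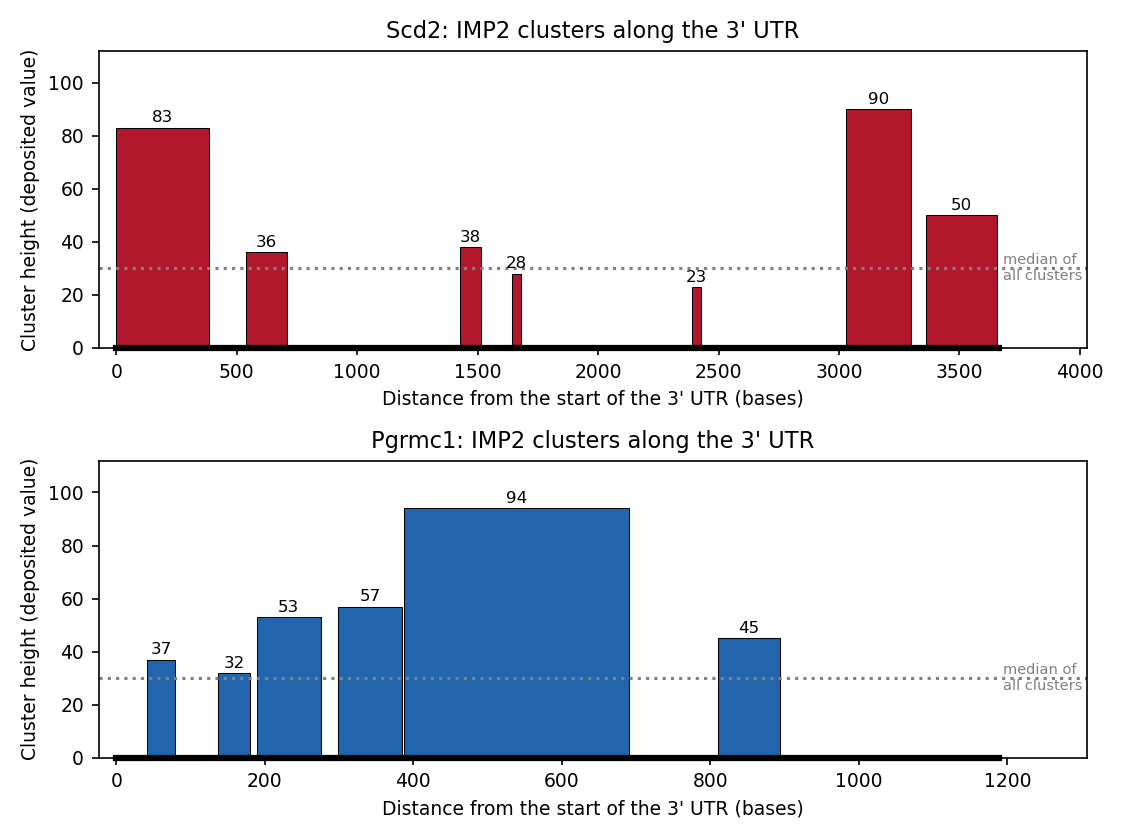
IMP2 clusters of Scd2 (upper panel) and Pgrmc1 (lower panel), drawn to scale against the distance in bases from the start of the 3' UTR (black bar); each block spans 1 cluster and its top is the deposited height. The Scd2 blocks of 83 and 90 stand near opposite ends, the Pgrmc1 blocks lie close together up to the block of 94, and the dotted line is the median height of all clusters, 30.

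How the clusters were spread made the main difference between both genes. Scd2 clusters covered 1282 bases, or 35.0% of the 3' UTR, and Pgrmc1 clusters covered 641 bases, or 54.0%. Per 1000 bases of 3' UTR this is 1.91 clusters for Scd2 and 5.05 for Pgrmc1. As the cluster numbers were close, at 7 and 6, these densities mainly restate the 3' UTR lengths of 3662 and 1188 bases. The mean position of the midpoints was 50.8% for Scd2 and 30.6% for Pgrmc1, counted from the stop codon. Joining clusters at most 50 bases apart left the 7 of Scd2 as they were, since its shortest gap was 61 bases, but turned the 6 of Pgrmc1 into 3. With so few clusters in each gene and no replicate values, the difference in position was not tested.

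In heights both genes were more alike. Scd2 heights ran from 23 to 90 with a median of 38, and Pgrmc1 heights from 32 to 94 with a median of 49. The tallest cluster held 25.9% of the summed height of Scd2 (348) and 29.6% of that of Pgrmc1 (318). Of the 13 clusters, 11 were taller than the median of the list, beside 46.9% of all clusters, a count that the choice of these genes by height favours. A height of at least 80 was reached by 3 of them, beside 1.48% of all clusters, and the same choice favours this count.

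Width followed height in these transcripts. The widest cluster of Pgrmc1 was also its tallest, and the 3 widest of Scd2 were its 3 tallest, though in another order (385, 295 and 272 bases for heights of 83, 50 and 90). Over the 13 clusters Spearman's rho between height and width was 0.79, and over all 1828 clusters it was 0.53. Clusters of 1 transcript share its abundance, and the 13 came from only 2 genes chosen by height. They are not independent points, and the difference between both values was not tested. Of the 13, 9 were wider than the median of the list, beside 49.8% of all clusters. At least 250 bases were spanned by 4 of the 13, beside 1.86% of all clusters (34 of 1828). Since width rose with height over the list too, the choice of these genes by height favours both counts. The median width was 170 bases in Scd2, 85 in Pgrmc1 and 53 in the list.

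**Figure D2:**
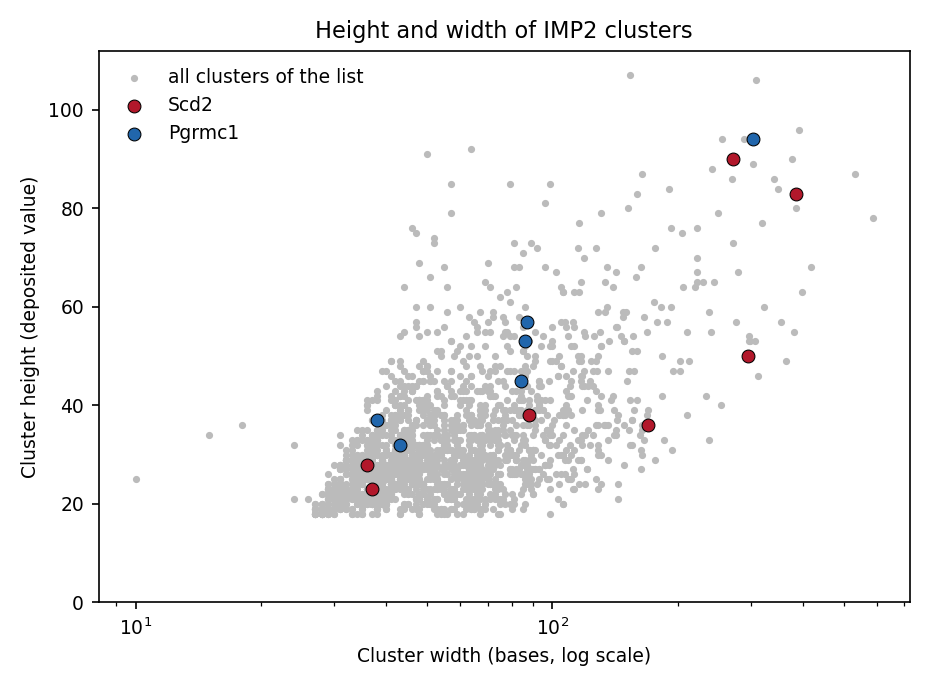
Height (deposited value) against width in bases (log scale) of all 1828 clusters in grey, with the 7 of Scd2 in red and the 6 of Pgrmc1 in blue. The tallest cluster of each gene, at 90 and 94, lies at the upper right with widths of 272 and 303 bases, while the low clusters of both lie within the main cloud.

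By fold the members stood out less than by height. The highest fold ranked Scd2 at place 37 and Pgrmc1 at place 69 of the 761 genes, where the tallest cluster had put them at places 9 and 4. The members were chosen by height, which favours a better place by height than by fold. By tallest cluster, each of these places was shared by 3 genes. The other genes at these places ranked between 85 and 199 by highest fold, so the drop was not particular to the members. Of the 13 clusters, 8 had a fold above the list's median of 5.40, beside 49.9% of all clusters. Dividing height by fold gives the level that the authors' ratio implies. It was between 5.49 and 8.43 in Scd2 and between 7.39 and 8.60 in Pgrmc1, against a median of 5.96 (interquartile range 4.81 to 7.31) over all clusters. All 6 Pgrmc1 clusters thus lay above the upper quartile of this level, and 4 of the 7 of Scd2 did. What this level measures was not tested.

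Set against the other listed genes, both members combined a tall cluster with several others. At least 6 clusters were held by 66 genes, 8.67% of those listed, while the median gene had 1. Scd2 ranked at place 38 by number of clusters, tied with others at 7, and Pgrmc1 at place 47, tied with others at 6. By summed height they came at places 27 and 33. In covered bases Scd2 was at place 8 and Pgrmc1 at place 34, and in the share of the 3' UTR covered the order was turned, with Pgrmc1 at place 15 and Scd2 at place 35 of 729 genes, whose median was 4.70%.

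The genes nearest to each member were found by tallest height, number of clusters and 3' UTR length together (Euclidean distance over z-scores of the log2 values, 729 genes). Nearest to Pgrmc1 were the stathmin gene Stmn2 (distance 0.29), the beta-catenin gene Ctnnb1 (0.34) and Nrep (0.57), which encodes a neuronal protein linked to regeneration. Each has 6 clusters as Pgrmc1 does, with tallest heights of 85, 86 and 106. Their clusters covered 22.1%, 78.2% and 72.6% of the 3' UTR, so that the 54.0% of Pgrmc1 lay between that of Stmn2 and those of the other two.

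Nearest to Scd2 were Gpm6b (distance 0.71), which encodes a proteolipid of the M6 family, the translation factor gene Eif4g2 (0.71) and Marchf6 (0.73), which encodes a ubiquitin ligase of the endoplasmic reticulum that degrades the sterol enzyme squalene epoxidase. They had 9, 11 and 5 clusters with tallest heights of 72, 94 and 74. In 3' UTRs of 3562, 4707 and 3290 bases, clusters covered 22.0%, 11.4% and 12.5%, each less than the 35.0% of Scd2. The distance between Scd2 and Pgrmc1 was 1.47, and the median distance of all genes was 3.84 from Scd2 and 3.78 from Pgrmc1. Tallest height is part of this distance, so the choice of both genes by height favours a short distance between them.

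**Figure D3:**
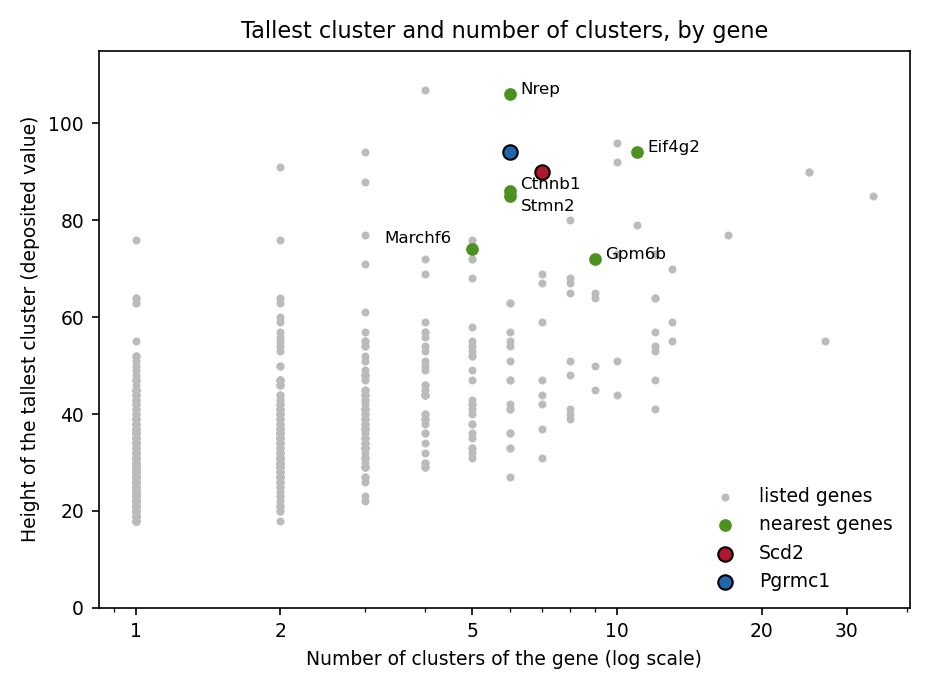
Height of the tallest cluster (deposited value) against the number of clusters (log scale), 1 point for each of 761 listed genes, with Scd2 in red, Pgrmc1 in blue and the 3 genes nearest to each in green. Both members lie in the upper middle of the plot, at 90 with 7 clusters and at 94 with 6.

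**Figure D4:**
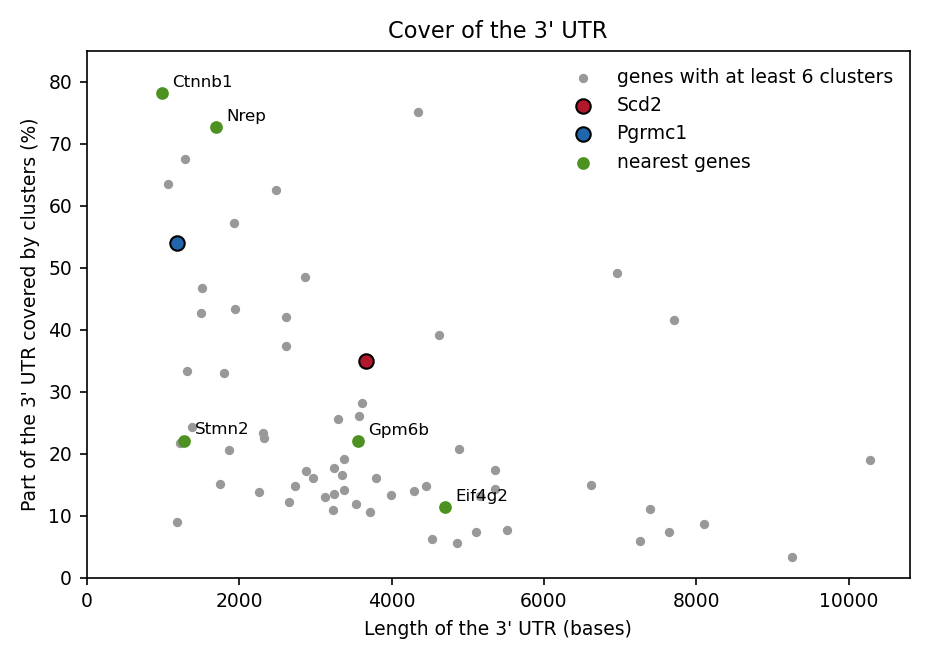
Percentage of the 3' UTR covered by clusters against its length in bases for the 66 genes with at least 6 clusters, with Scd2 in red, Pgrmc1 in blue and those of the nearest genes that reach 6 clusters in green. Pgrmc1 covers 54.0% of 1188 bases and Scd2 35.0% of 3662 bases, while Ctnnb1 reaches 78.2% and Eif4g2 11.4%.

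None of the close paralogs of either gene was listed. Scd1, Scd3 and Scd4, which neighbour Scd2 on chromosome 19, had 0 rows by symbol, accession or synonym, and the same held for Pgrmc2 on chromosome 3. In the RefSeq order of protein-coding genes, Scd3, Scd2, Scd4 and Scd1 follow each other, with Pkd2l1 before and Wnt8b after them, and Scd2 was the only listed gene of these. The nearest listed clusters of other genes lay 3080 kb before the Scd2 transcript, in Tm9sf3, and 1444 kb after it, in Oga. Around Pgrmc1 they lay 13879 kb before, in Uba1, and 1627 kb after, in Lamp2. The levels of the paralogs' transcripts in these brains were not analysed here, so low expression and little binding cannot be told apart for an unlisted paralog. The labels do not say how tags that match several paralogs were placed, and its part in the counts of Scd2 was not tested.

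Most other genes of lipid, sterol and related biology were not listed. The tallest clusters of those that were lay around the middle of the list, well under those of Scd2 and Pgrmc1. Of 161 genes in 9 lists covering lipid, sterol, haem and progesterone biology, 12 were listed, beside 3.47% of all 21900 protein-coding genes. Without Scd2 and Pgrmc1, whose clusters had prompted these lists, it was 10 of 159, or 6.29% (exact Clopper-Pearson 95% interval 3.06 to 11.3, which includes 3.47%). With the members counted, 7 of the 161 had a cluster taller than the median, beside 1.87% of protein-coding genes, and 7 had at least 2 clusters, beside 1.56%. Scd2 and Pgrmc1 are in both of these counts, which their choice by height favours. No test was made of these shares, and expression of the genes in the brain was not taken into account. The median over these 10 genes of their tallest cluster was 32, beside 31 over all listed genes, and the maximum was 39, against 90 for Scd2 and 94 for Pgrmc1. They had 17 clusters in all, and 5 of them had a single one.

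Among the enzymes that act beside Scd2, the delta-5 desaturase gene Fads1 was the other listed one of 10 desaturase genes. Its single cluster (chr19:10270370-10270436) had a height of 39, with a fold of 11.1 that is near that of the tallest Scd2 cluster (12.7). Fatty acid synthesis and elongation had 3 of 26 genes listed. These were Acly, which makes cytosolic acetyl-CoA from citrate (height 37, 3 clusters), the elongation-cycle dehydratase gene Hacd3 (34) and the acyl-CoA synthetase gene Acsl3 (27). The fatty acid synthase gene Fasn had no cluster, and none was listed among 25 genes of glycerolipid and sterol ester synthesis (upper 95% limit 13.7%).

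Among genes of sterol metabolism, cholesterol synthesis had 2 of 21 listed. Among them was Lbr, a nuclear envelope protein with sterol reductase activity, which had 2 clusters with a greatest height of 37 (chr1:183745751-183745801). Cyp51, the demethylase that Pgrmc1 binds, was not listed. Of 14 sterol sensing genes, which include Srebf1, Srebf2, Scap and the Insig genes, none was listed (upper 95% limit 23.2%). Sterol and lipoprotein transport had 1 of 26, the reelin and apolipoprotein E receptor gene Lrp8 (2 clusters, height 29).

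Around Pgrmc1, the MAPR and cytochrome b5 family had 2 of 12 genes listed, Pgrmc1 itself and the cytochrome b5 reductase gene Cyb5r3 (height 30, 1 cluster). Progesterone receptors and their partners had 2 of 9. Among them was Serbp1, an mRNA-binding protein that has been reported as a partner of Pgrmc1, with 3 clusters and a height of 37. The nuclear progesterone receptor gene Pgr and the membrane receptor genes of the Paqr family were not listed. None of 18 genes of haem synthesis and transport was listed (upper 95% limit 18.5%).

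**Figure D5:**
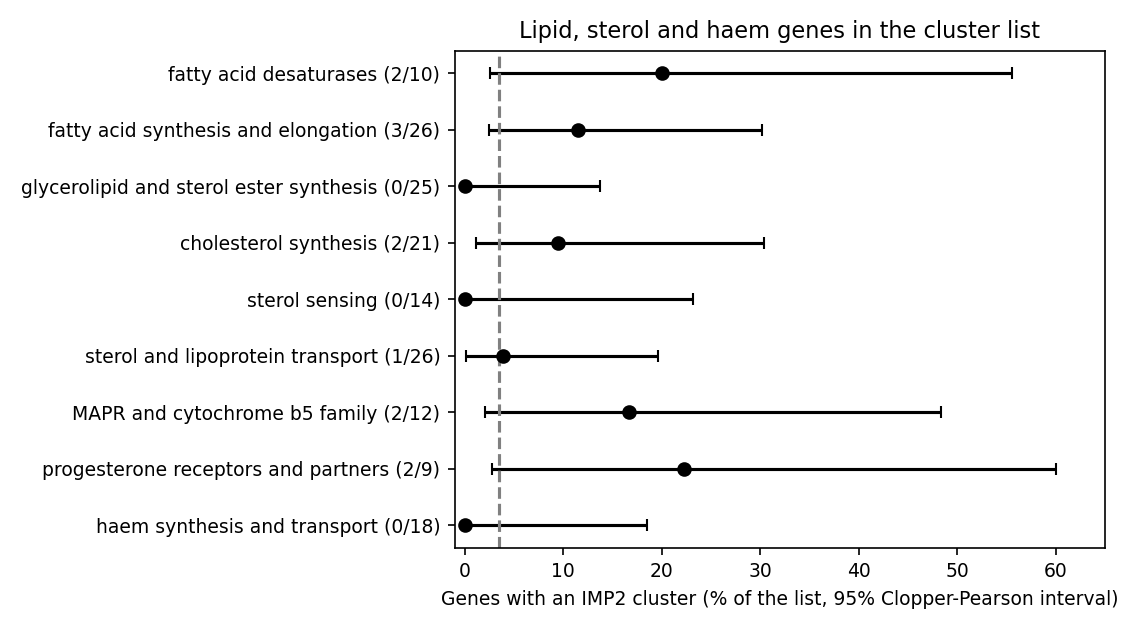
Share of each gene list with at least 1 IMP2 cluster (points, in % of the list) with exact Clopper-Pearson 95% intervals (bars), and the count listed in brackets; the dashed line marks the 3.47% of all protein-coding genes. Every interval includes that line, and those of the lists with 0 genes reach 13.7%, 18.5% and 23.2%. The desaturase list counts Scd2 and the MAPR and cytochrome b5 list counts Pgrmc1, both chosen from the cluster list itself.

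Markers of the cells that a brain sample may hold were counted in the same way. Neuronal markers had 7 of 11 genes listed, with tallest heights from 19 to the 85 of Dcx. Neural progenitor markers had 2 of 9, with tallest heights of 27 and, in Ccnd2, 77. None of 10 oligodendrocyte, 8 adipocyte and 7 microglia markers was listed (upper 95% limits 30.8%, 36.9% and 41.0%). With 3.47% of all protein-coding genes listed, lists of this size could hold none whatever their cell type. Erythroid markers had 3 of 8, with heights of 23 to 27 from 2 distinct clusters, since Hba-a1 and Hba-a2 share 1 in the coding sequence, and hepatocyte markers 1 of 8, which was Ttr (88), a gene also active in choroid plexus. The clusters of Scd2 and Pgrmc1 cannot be assigned to a cell type from whole brain, and fewer cells of a type cannot be told apart from less RNA in each.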

How the data were processed

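HITS-CLIP of IMP2 was done in 4 libraries of E14 mouse brain. Bowtie, FastQC and the build mm9 are named in the submitters' processing notes, without versions. Neither the labels nor the header say which peak caller, thresholds or RefSeq release were used, or whether libraries were pooled. The authors deposited the cluster height as a signal in whole numbers, from 18 to 107, and a fold of the height (a ratio, 2 or more). The 2865 lines were reduced to 1828 clusters. Starts were turned from 0-based into 1-based. Of 1099 transcripts, 1088 were named by accession and 11 by gene name from the RefSeq table of GRCm38. Coordinates of that build served only to order the genes around Scd2.

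Covered bases are the union of clusters within the longest deposited 3' UTR interval, and positions use midpoints. Python 3.11.15 with pandas 2.3.3, numpy 2.4.6 and scipy 1.17.1 was used, and the interval functions were tested on simulated intervals. Intervals of shares cover counting error only.

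The members and gene lists were chosen with earlier results of these data known, so no test was run. Named genes were the members, their paralogs, up to 4 listed genes per list and the 3 genes nearest to each member. Of the genes counted in these lists, 2 are not reported by name here.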

Additional observations from a re-analysis of the deposited data

How the results depend on the processing

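By the highest fold, Scd2 ranked at place 37 and Pgrmc1 at place 69, and by summed height at places 27 and 33, against 9 and 4 by the tallest cluster. Joining clusters at most 50 bases apart left 3 for Pgrmc1. Counting clusters above the median height left 5 for Scd2 and 6 for Pgrmc1. With the cluster end nearest to the stop codon in place of the midpoint, the mean position was 48.3% for Scd2 and 26.1% for Pgrmc1. Each gene has a single deposited 3' UTR interval, so the choice between longest and shortest changed nothing. Stricter rules for a listed gene can only lower the share of a gene list. With at least 2 clusters the share fell from 20% to 10% for desaturases, from 11.5% to 3.85% for fatty acid synthesis and elongation, from 16.7% to 8.33% for the MAPR and cytochrome b5 family and from 22.2% to 11.1% for progesterone receptors and partners. Sterol and lipoprotein transport fell to 0% when the tallest cluster had to exceed the median height. The intervals of these shares are too wide to read stability from them. No paired analysis was possible because the list holds no value of a single library, and for the same reason no library could be left out. The depth of the libraries is unknown, so clusters under the lowest deposited height of 18 cannot be told from absent ones.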
